A study of Mus musculus with 9 samples.

Results

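The galectins and S100 proteins described here are 10 genes, chosen by their symbols from the 54532 genes of the deposited count table. They are the galectin genes Lgals1, Lgals3, Lgals7 and Lgals9 and the S100 genes S100a4, S100a6, S100a10, S100a11, S100a13 and S100a16. They were proposed with earlier results of the same counts in view, so their values by stage are given as a description and carry no p-value. The tissue was the lambdoidal junction, where the facial prominences meet and fuse into the upper lip and primary palate, taken from mouse embryos of the C57BL/6J strain with no other genotype or treatment. Embryos were collected at E10.5 (embryonic day 10.5), at E11.5 and at E12.5. Each stage had 3 libraries of total RNA, each made from pooled embryos, so a library is an average over animals and the spread between libraries is that between pools. Total counts per library were 16581009–20836804. Levels are given as CPM (read counts relative to the TMM-scaled library size), library by library or as the mean ± SD of the 3 libraries of a stage, and levels of different genes are compared only as CPM per kb of gene length.

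Galectins are lectins that bind β-galactoside sugars, and they act both outside the cell, where they bridge glycoproteins of the surface and matrix, and inside it. S100 proteins are small calcium-binding proteins with EF-hand motifs that mostly form dimers and, on binding calcium, attach to target proteins such as the annexins. Members of both families are known from stratifying epithelium, from connective tissue cells and from immune cells, and most S100 genes of the mouse lie in a cluster on chromosome 3.

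Over the whole span from E10.5 to E12.5, the transcripts of 7 members rose past the thresholds, 1 was higher without passing them, and 2 had too few reads to be tested. A gene was called when edgeR's quasi-likelihood test gave an adjusted p-value (Benjamini-Hochberg, over all genes tested) of 0.05 or less together with a log2 fold change of 1 or more in either direction. In the whole span (E12.5 vs. E10.5), 7 of the 8 members tested were called, all higher at E12.5, where 15.0% of the 15899 genes tested were called and 9.97% were called as higher. Among the 7 is Lgals7, which entered this test only through its E12.5 counts, so its call was bound to be a rise. Lgals9, with 7 reads in E10.5 replicate 3, also needed its E12.5 counts to enter. In the first interval (E11.5 vs. E10.5), 1 of 8 was called, beside 6.07% of 15708 genes and 3.46% called as higher. In the second interval (E12.5 vs. E11.5), 5 of 9 were called, beside 5.10% of 15808 genes and 4.14% called as higher. No member was called as lower, where 2.61% of genes were lower in the first interval, 0.962% in the second and 5.08% over the whole span.

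All libraries of the later stage lay above all of the earlier stage for 5 tested members in the first interval, 8 in the second and 8 over the whole span. Over all genes tested, the shares were 18.3%, 18.5% and 22.0%. The median log2 fold change of the tested members was 0.67 in the first interval, 1.29 in the second and 1.99 over the whole span, whereas the median over all genes tested was −0.03, 0.02 and −0.01. Nothing is read from these counts and medians, because the members were chosen with this outcome known. The 3 comparisons also share libraries with each other.

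**Figure D1:**
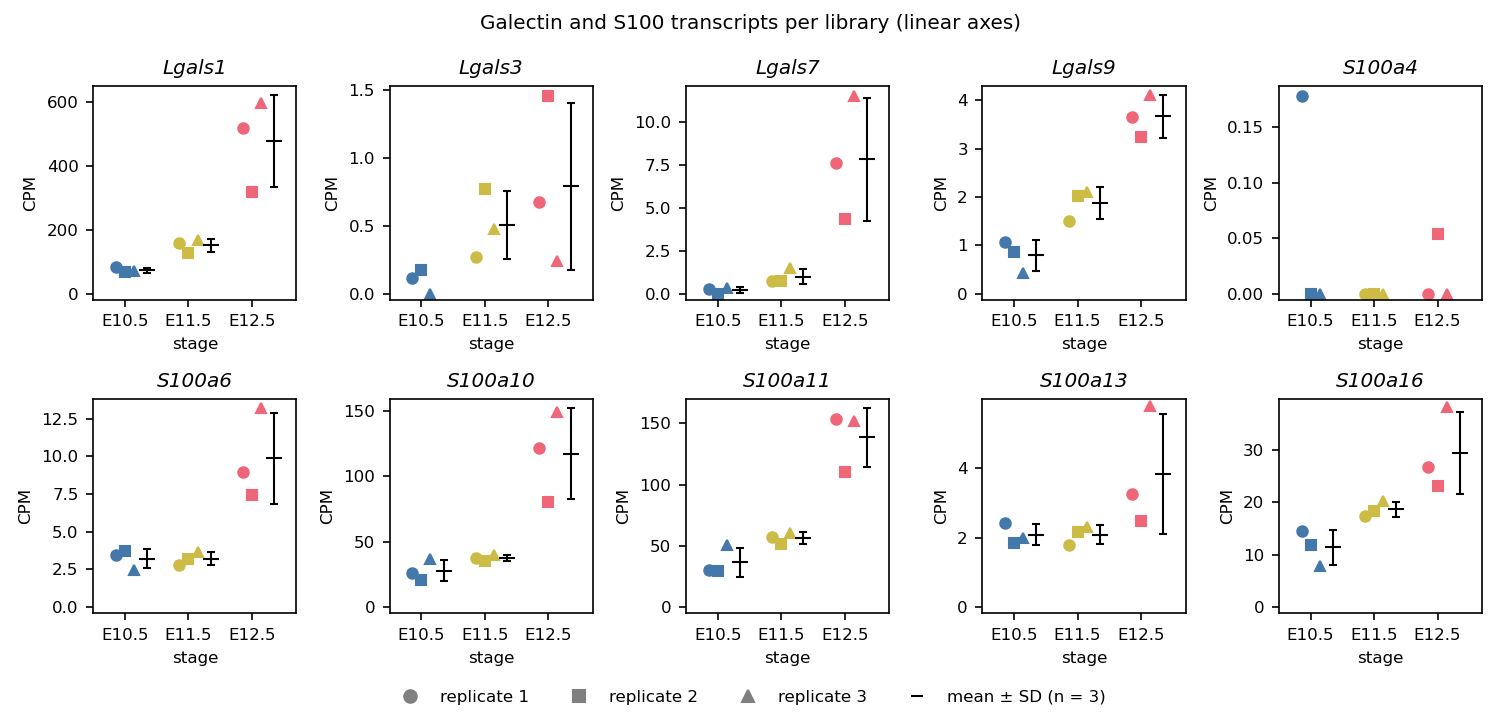
CPM of each of the 10 genes (vertical axes, linear, a separate scale for each gene) in the 9 libraries by stage (horizontal axes), with the mean and SD of the 3 libraries beside the points, drawn where a library of the stage had more than 3 counts. For Lgals1, S100a10 and S100a11 the 3 E12.5 libraries lie far above the others, and S100a4 is at 0 in 7 of the 9 libraries.

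Lgals1 encodes galectin-1, a dimeric galectin of connective tissue that binds laminin, fibronectin and integrins. Its gene (ENSMUSG00000068220) lies on chromosome 15 of GRCm38, at 78926725–78930465 on the plus strand. It was at 83.6, 66.9 and 70.2 CPM in E10.5 replicates 1 to 3, at 159, 128 and 169 CPM in the E11.5 libraries, and at 518, 317 and 598 CPM in the E12.5 libraries. The libraries of the 3 stages did not overlap, and E12.5 replicate 2 was the lowest of its stage. The log2 fold change was 1.05 (SE 0.14) in E11.5 vs. E10.5 and 1.65 (SE 0.21) in E12.5 vs. E11.5, and Lgals1 was the only member called in both intervals. The first of these calls was lost without E10.5 replicate 2 (0.98) and without E11.5 replicate 3 (0.97). Per kb of gene length, Lgals1 made up 84.2% ± 3.32 of the summed CPM of all listed galectin genes at the earliest stage, then 91.3% ± 1.30, and 95.1% ± 1.21 at the latest (SD, n = 3). Its level per kb stood at the 96.6th, 98.7th and 99.7th percentile of 16375 expressed genes at the successive stages. The pseudogenes Lgals1-ps1 and Lgals1-ps2 held no reads.

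Lgals7 encodes galectin-7, which is known from stratified epithelium. The gene lies on chromosome 7, at 28863853–28866284 on the plus strand. It was found with 5, 0 and 5 reads in E10.5 replicates 1 to 3, with 14, 15 and 28 at E11.5, and with 135, 81 and 193 at E12.5. In CPM, it went from 0.202 ± 0.175 at E10.5 through 0.983 ± 0.426 to 7.83 ± 3.58 at E12.5. The stages did not overlap, and Lgals7 had the highest fold of the tested members, with a log2 fold change of 5.25 (SE 0.63) in E12.5 vs. E10.5 and 2.98 (SE 0.40) in E12.5 vs. E11.5. The first interval, 2.26 (SE 0.72), was not called, and it was called without E10.5 replicate 3 (2.69). With no more than 5 reads in an E10.5 library, Lgals7 entered the tests against E10.5 only through its later counts. A call against E10.5 was thus bound to be a rise. The keratins of the basal epithelial layer are given beside it. Krt14 was at 13.1–21.6, 26.3–36.6 and 117–185 CPM in the libraries of the successive stages, and Krt5 at 1.63–2.42, 24.8–39.9 and 149–153 CPM. Of the whole list of 12 epithelium markers, 3 were called as higher over the whole span (Krt5, Krt14 and Krt15) and 1 as lower, Krt18 of simple epithelium (−1.02, SE 0.23), with a median log2 fold change of −0.17. The shares of all genes tested were 9.97% called as higher and 5.08% as lower. Krt8, its partner in simple epithelium, was at −0.83 (SE 0.21), and Trp63, a regulator of basal epithelium, at −0.14 (SE 0.30), and neither was called. Epcam and Cdh1, which mark epithelium in general, had log2 fold changes of −0.03 (SE 0.23) and −0.21 (SE 0.23) in E12.5 vs. E10.5 and were not called. The part of a changed share of epithelial cells in the Lgals7 values was not tested. In bulk tissue, more cells of a type and more RNA per cell cannot be told apart, and this holds for every gene below.

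Lgals9 encodes galectin-9, a galectin with a pair of carbohydrate-binding domains that is known from immune cells and endothelium. It was at 1.07, 0.871 and 0.434 CPM in E10.5 replicates 1 to 3, at 1.51, 2.02 and 2.11 CPM at E11.5, and at 3.66, 3.23 and 4.11 CPM at E12.5. No library of a later stage reached down to those of an earlier stage. The log2 fold change was 2.21 (SE 0.38) in E12.5 vs. E10.5 and was called, while 1.24 (SE 0.38) in E11.5 vs. E10.5 and 0.96 (SE 0.25) in E12.5 vs. E11.5 were not. With 18, 15 and 7 reads in E10.5 replicates 1 to 3, Lgals9 entered the tests against E10.5 only with its later counts. A call against E10.5 could thus hardly have been a fall. Each interval lay close to the thresholds. The first was called in a fit on all 9 libraries (1.24), and the second without E12.5 replicate 2 (1.03).

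Lgals3 encodes galectin-3, the chimeric galectin of macrophages and many epithelia, and was close to the limit of detection. It had 2, 3 and 0 reads in E10.5 replicates 1 to 3, 5, 16 and 9 reads at E11.5, and 12, 27 and 4 reads at E12.5. A fold against E10.5, where no library exceeded 3 reads, is therefore a lower bound against 3 counts per library: the mean CPM was at least 2.81-fold higher at E11.5 and at least 4.41-fold higher at E12.5, and neither was tested. The E12.5 bound rests on replicate 2 and was 2.55-fold without it. The E11.5 and E12.5 libraries overlapped, with a log2 fold change of 0.64 (SE 0.61) that became −0.15 without E12.5 replicate 2. The 12 macrophage markers summed to 33.6–46.3 CPM at E10.5, 43.7–48.9 CPM at E11.5 and 54.8–62.0 CPM at E12.5, and all 12 were detected. In E12.5 vs. E10.5, 2 of these markers were called as higher, beside 9.97% of all genes tested. Their part in the Lgals3 and Lgals9 values was not tested.

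S100a11 and S100a10 were the most abundant S100 transcripts. S100a11 encodes a partner of annexin A1 in keratinocytes, and its gene (ENSMUSG00000027907) lies on chromosome 3, at 93520488–93526287 on the plus strand. It was at 30.2, 30.1 and 50.6 CPM in E10.5 replicates 1 to 3, at 57.7, 51.4 and 60.6 CPM at E11.5, and at 153, 111 and 152 CPM at E12.5. The stages did not overlap, although E10.5 replicate 3 came close to the lowest E11.5 library. The log2 fold change was 0.62 (SE 0.21) in E11.5 vs. E10.5, which was not called, and 1.29 (SE 0.15) in E12.5 vs. E11.5, which was. S100a11 held 65.0% ± 5.09, 68.1% ± 1.25 and 65.6% ± 3.14 of the CPM per kb of all S100 genes listed at the successive stages (SD, n = 3) and lay between 59.9% and 70.1% in each of the 9 libraries.

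S100a10 encodes the p11 light chain that joins annexin A2 in a tetramer at the plasma membrane. Its gene (ENSMUSG00000041959) lies 28792 bases beyond S100a11, at 93555080–93564643 on the plus strand. It was at 26.3, 21.1 and 36.6 CPM in E10.5 replicates 1 to 3, at 37.3, 35.1 and 39.6 CPM at E11.5, and at 122, 80.3 and 150 CPM at E12.5. The first 2 stages overlapped through E10.5 replicate 3, and the E12.5 libraries stood apart. The log2 fold change was 0.42 (SE 0.20) in the first interval, which was not called, and 1.65 (SE 0.20) in the second, which was. Among the 9 tested members taken in pairs, S100a10 and S100a11 had the most alike profiles, with a Pearson r of 0.98 over log2 CPM of the 9 libraries, which share their stages and depths.

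S100a6, S100a13 and S100a16 were found at lower levels. S100a6 encodes calcyclin, which is known from fibroblasts and proliferating cells. It was at 3.45, 3.72 and 2.48 CPM in E10.5 replicates 1 to 3, at 2.80, 3.17 and 3.69 CPM at E11.5, and at 8.96, 7.44 and 13.2 CPM at E12.5. The first 2 stages overlapped throughout, with a log2 fold change of 0.01 (SE 0.24), and nearly all of its difference lay in the second interval, 1.61 (SE 0.24), which was called.

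S100a16, which encodes a broadly expressed S100 protein, was at 14.6, 11.8 and 7.80 CPM in E10.5 replicates 1 to 3, at 17.4, 18.4 and 20.2 CPM at E11.5, and at 26.8, 23.2 and 38.1 CPM at E12.5. The stages did not overlap, and the 2 intervals were of similar size, 0.72 (SE 0.22) and 0.65 (SE 0.18) on the log2 scale. Neither was called, while the whole span, 1.37 (SE 0.27), was.

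S100a13, whose protein is known for its part in the release of FGF1, was the tested member with the smallest difference over the whole span. It was at 2.44, 1.86 and 1.98 CPM in E10.5 replicates 1 to 3, at 1.78, 2.16 and 2.32 CPM at E11.5, and at 3.27, 2.48 and 5.78 CPM at E12.5. All E12.5 libraries were above the earlier ones, but E12.5 replicate 3 was 2.33 times as high as E12.5 replicate 2. The log2 fold change in E12.5 vs. E10.5 was 0.88 (SE 0.36) and was not called, and it was 0.46 without E12.5 replicate 3.

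S100a4, widely used as a marker of fibroblasts under the name FSP1, was almost absent from the counts. It had 3 reads in E10.5 replicate 1, 1 read in E12.5 replicate 2 and none in the other 7 libraries. A count of 0 allows up to 3 counts, or 0.154–0.179 CPM at the depth of these libraries, and no change could be tested at that depth. Of its exon sequence, 51.7% is shared with Gm42674 on the same strand, and how reads in shared sequence were counted is not given in the sources used here. Beside it, 12 of 12 facial mesenchyme markers had more than 3 counts in every library.

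**Figure D2:**
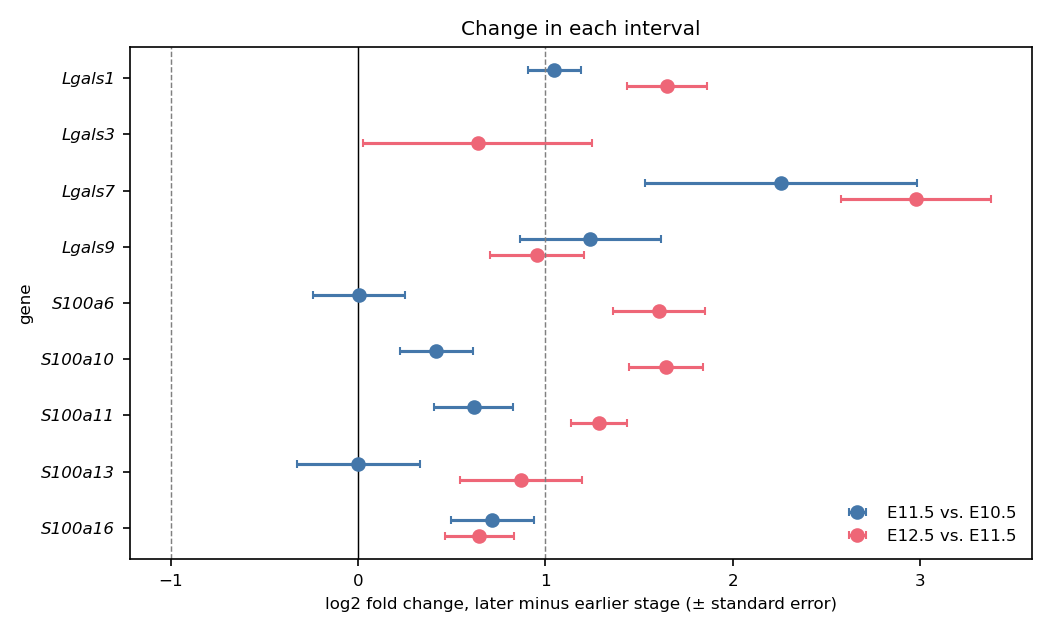
log2 fold change of the 9 tested genes (vertical axis) in the first interval, E11.5 vs. E10.5, and in the second, E12.5 vs. E11.5 (horizontal axis), with bars of 1 standard error and dashed lines at the fold threshold. S100a6, S100a10, S100a11 and S100a13 lie further right in the second interval, and S100a16 and Lgals9 have nearly the same position in both.

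The 2 intervals thus differed from gene to gene in size, although the difference between intervals was not tested and both share the E11.5 libraries. In log2 fold changes of the first and second interval, S100a6 (0.01 and 1.61) and S100a10 (0.42 and 1.65) had most of their difference between E11.5 and E12.5, whereas Lgals9 (1.24 and 0.96) and S100a16 (0.72 and 0.65) were spread over both. S100a13 stood at 2.09 CPM at both earlier stages, and its log2 fold change in the second interval was 0.87 (SE 0.32). By level per kb, the order was Lgals1, S100a11, S100a10 and S100a16 at each of the 3 stages. The libraries of neighbours in that order were separate, except that those of Lgals1 and S100a11 overlapped at E10.5. S100a13 and S100a6 came next at E10.5 and E11.5, in that order, and lay in the reverse order at E12.5, and their libraries overlapped at all 3 stages. Lgals7 stood below S100a6 at E10.5 and E11.5 and had overtaken it by E12.5, at 8.44 ± 3.86 CPM per kb against 7.23 ± 2.20 CPM per kb, where their libraries overlapped. Lgals9, Lgals3 and S100a4 were the lowest 3 at E12.5.

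A promoter sequence before the RefSeq start was at hand for 8 of the 10 members, as 9 windows of 250 bases in GRCm38.p6, and 3 of these are shown. S100a11 is the most abundant S100 gene per kb, S100a6 differed mainly in the second interval, and S100a4 was almost without reads. Both strands were searched for TATAAA (the TATA box), for TGANTCA (the core of the AP-1 site) and for GGGCGG (the Sp1 box), and capitals mark matches to the first 2 of these.
S100a11, chr3:93520246-93520495, plus strand: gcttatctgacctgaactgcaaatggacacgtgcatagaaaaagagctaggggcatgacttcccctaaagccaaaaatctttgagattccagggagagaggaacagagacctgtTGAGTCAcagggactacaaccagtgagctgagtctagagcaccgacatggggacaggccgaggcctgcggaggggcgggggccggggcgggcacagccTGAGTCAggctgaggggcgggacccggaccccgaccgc
S100a6, chr3:90612644-90612893, plus strand: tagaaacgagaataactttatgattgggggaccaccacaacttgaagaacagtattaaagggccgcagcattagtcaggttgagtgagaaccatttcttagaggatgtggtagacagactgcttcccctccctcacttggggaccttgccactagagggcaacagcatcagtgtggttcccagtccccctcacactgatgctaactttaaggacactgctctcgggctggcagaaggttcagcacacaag
S100a4, chr3:90603520-90603769, plus strand: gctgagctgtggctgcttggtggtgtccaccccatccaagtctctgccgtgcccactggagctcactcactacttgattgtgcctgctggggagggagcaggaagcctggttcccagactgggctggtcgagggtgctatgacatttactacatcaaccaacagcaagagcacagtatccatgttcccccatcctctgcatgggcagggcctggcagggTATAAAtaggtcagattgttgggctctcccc
The S100a11 window held 2 copies of TGAGTCA, which began 136 and 38 bases before the start, 3 copies of GGGCGG and 11 CpG dinucleotides. The S100a6 window held none of the 3 motifs and 3 CpG, and the S100a4 window held TATAAA 31 bases before the start and 2 CpG. Among 32851 such windows, 12.4% held TATAAA, 6.75% TGANTCA and 32.7% GGGCGG, and the median number of CpG was 6. Of the other members, TGANTCA was found only in the downstream of the 2 windows of S100a16. A match describes the letters of the window and does not show that a factor binds there. By the annotation used here, 8 bases of the S100a11 window and 12 of the S100a6 window lie within an exon.

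Other genes of both families were then listed. Like the members, they were listed with earlier results of these counts in view, and their p-values take no account of that choice. Of 6 other galectin genes, 5 were in the table and 3 could be tested, and none was called in any of the 3 comparisons. Lgals8, a galectin with a pair of binding domains, was at 8.43, 8.79 and 8.23 CPM at the successive stages, and Lgalsl, a galectin-related gene, at 48.3, 44.3 and 52.2 CPM. Lgals4, known from the gut, was at 0.710, 0.474 and 0.748 CPM. Lgals2 and Lgals12 had 13 and 67 reads over all libraries.

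Of 11 other S100 genes, 10 were in the table, and 1 could be tested in the first interval, 6 in the second and 6 over the whole span. The numbers called were 0, 5 and 6, all higher at the later stage, beside the 3.46%, 4.14% and 9.97% of all genes called as higher. All 6 had their E12.5 libraries above those of E10.5, as had 22.0% of all genes tested. For 5 of the 6, no E10.5 library exceeded 3 reads, so these genes entered the test against E10.5 only through their E12.5 counts. All 5, namely S100a8, S100a9, S100a14, S100b and S100z, had too few reads to be tested between the earlier stages. They entered the second interval in the same way, so any call there was bound to be a rise and no p-value is given for them. S100a14, an S100 gene of stratified epithelium, had 1, 1 and 0 reads in E10.5 replicates 1 to 3, 5, 1 and 8 at E11.5, and 58, 52 and 74 at E12.5. It was at least 19.5-fold higher at E12.5 than at E10.5, and its log2 fold change in E12.5 vs. E11.5 was 3.81 (SE 0.48).

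S100b, known from Schwann cells, glia and cartilage, had 2, 0 and 0 reads in E10.5 replicates 1 to 3, 4, 1 and 0 at E11.5, and 17, 43 and 17 at E12.5. It was at least 7.98-fold higher at E12.5 than at E10.5, and no fold is given against the few reads at E11.5. Beside it, 6 of 8 markers of Schwann cells and glia were called as higher in E12.5 vs. E10.5 and 1 as lower, and their sum went from 66.1–82.8 to 94.2–129 CPM. Of all genes tested, 9.97% were called as higher and 5.08% as lower in that comparison. Their part in the S100b values was not tested.

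S100a8 and S100a9, whose proteins form calprotectin in neutrophils and in stressed epithelium, had no reads at E10.5. At E12.5 S100a8 had 23, 46 and 15 reads in replicates 1 to 3 and S100a9 had 10, 24 and 16. Against E10.5, the later level was at least 8.68-fold higher for S100a8 and at least 5.23-fold higher for S100a9. Without E12.5 replicate 2, these bounds were 6.11-fold and 4.23-fold. The log2 fold changes in E12.5 vs. E11.5 were 2.47 (SE 0.64) and 2.27 (SE 0.53). They stand against few reads, since in E11.5 replicates 1 to 3 S100a8 had 4, 1 and 11 and S100a9 had 5, 4 and 2. The S100a8 call was lost without E11.5 replicate 1, E11.5 replicate 2 or E12.5 replicate 1, and the S100a9 call without E11.5 replicate 2 or E11.5 replicate 3.

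S100z had 1 read in each E10.5 library, 8, 14 and 11 at E11.5, and 11, 45 and 33 at E12.5. It was at least 9.32-fold higher at E12.5 than at E10.5 and was not called in E12.5 vs. E11.5 (log2 fold change 1.55, SE 0.50), where E12.5 replicate 1 lay among the E11.5 libraries. S100a1, a gene of cardiac and skeletal muscle, had log2 fold changes of 1.09 (SE 0.34, adjusted p = 0.0403) in E12.5 vs. E10.5 and 1.26 (SE 0.28, adjusted p = 0.0155) in E12.5 vs. E11.5. Among the fits that left out a library, the first of these calls held only without E10.5 replicate 3 or E12.5 replicate 2, and the second only without E12.5 replicate 2 or E12.5 replicate 3. S100a3, S100a5, S100a7a and S100g had 7 reads or fewer over all 9 libraries, and S100a2, which was not on the list, had 1.

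**Figure D3:**
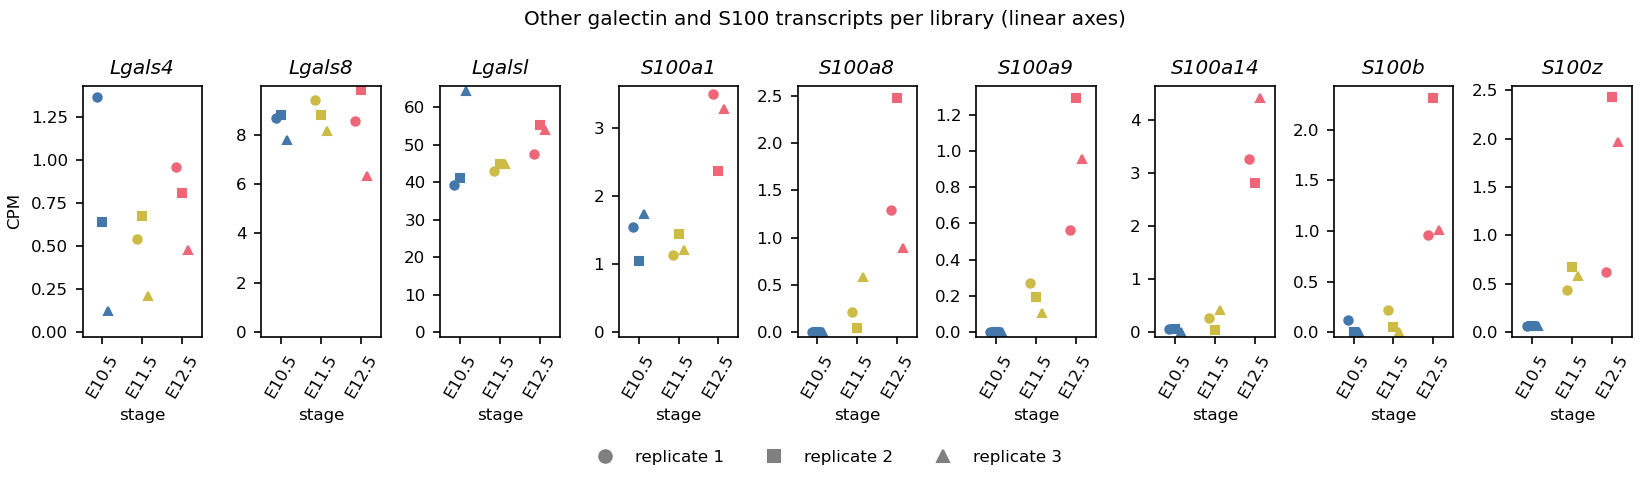
CPM of the 9 testable galectin and S100 genes outside the 10 members (vertical axes, linear, a separate scale for each gene) in each library by stage (horizontal axes). The 3 galectin genes on the left show no separation of E12.5 from E10.5, and the 6 S100 genes have all E12.5 libraries above those of E10.5.

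On chromosome 3, 13 S100 genes of the table lie between 90511034 and 93564643, with S100a11 and S100a10 set 2824766 bases apart from the nearest of the others, S100a9. Of the 9 that could be tested, 8 were called as higher over the whole span and 7 in the second interval, and of the 6 that could be tested in the first interval, none was called, beside 9.97%, 4.14% and 3.46% of all genes tested that were called as higher over the whole span and in the second and first interval. These include the members, chosen for such values. They also include S100a8, S100a9 and S100a14, which entered the tests only through their E12.5 counts, so that their calls were bound to be rises. Between them the table lists 62 other protein-coding genes, most of them without enough reads to be tested. Of the 3 tested in E12.5 vs. E10.5, only Lor, the cornified envelope gene loricrin, was called. It was at 0.401 ± 0.221 CPM at E10.5 and 1.13 ± 0.148 CPM at E12.5 (log2 fold change 1.49, SE 0.50). Lor, too, entered this test only through its E12.5 counts, so its call was bound to be a rise and no p-value is given.

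Of 21 genes whose proteins are known to bind S100 proteins or to act with them, 19 were tested, and 3 were called as higher in the first interval, 3 in the second and 4 over the whole span, with none lower. Of all genes tested, 3.46%, 4.14% and 9.97% were called as higher in the same order. The median log2 fold change of the list was 0.10, 0.07 and 0.26. The called genes were annexins and Ahnak. This list was drawn up with earlier results of these counts in view, so its adjusted p-values are a description and take no account of that choice. Anxa2, the partner of S100a10, was at 48.7, 37.4 and 40.2 CPM in E10.5 replicates 1 to 3, at 153, 113 and 156 CPM at E11.5, and at 512, 440 and 651 CPM at E12.5. The stages did not overlap, and both intervals were called, at 1.74 (SE 0.16, adjusted p = 0.00130) and 1.92 (SE 0.18, adjusted p = 0.000155) on the log2 scale. In the first interval S100a10 itself was not called, at 0.42. The difference between these 2 genes was not tested.

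Anxa1, the partner of S100a11, went from 0.878 CPM at E10.5 through 3.91 CPM to 28.7 CPM at E12.5, a log2 fold change of 5.03 (SE 0.26, adjusted p = 1.07e-06 by edgeR's quasi-likelihood test). Anxa6, which binds several S100 proteins, rose by 2.22 (SE 0.21) over the same span. Ahnak, a very large scaffold protein bound by S100a10 with annexin A2, rose by 1.44 (SE 0.15, adjusted p = 0.00179) in the first interval, and its second interval, 0.68 (SE 0.18), was below the fold threshold. Cacybp, which encodes the calcyclin-binding protein named after S100a6, was at 246, 154 and 159 CPM at the successive stages and was not called in any comparison.

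Of 30 genes for galectin ligands and for the enzymes that build the glycans galectins bind, 27 were tested. This list, too, was drawn up with earlier results in view, and its adjusted p-values are a description. In the first interval 1 was called as higher, in the second 2, and over the whole span 3 as higher and 1 as lower, with median log2 fold changes of 0.22, 0.12 and 0.43. These counts were near the share of all genes, of which 3.46%, 4.14% and 9.97% were called as higher in the same order and 5.08% as lower over the whole span. Egfr, the EGF receptor that galectin-3 can retain at the surface, rose by 1.42 (SE 0.15, adjusted p = 0.00190 by edgeR's quasi-likelihood test) in the first interval and by 2.17 (SE 0.22) over the whole span. Cd44, the hyaluronan receptor, rose by 1.46 (SE 0.16, adjusted p = 0.000296) in the second. Lgals3bp, a secreted glycoprotein named for its binding to galectin-3, rose by 1.72 (SE 0.37, adjusted p = 0.00641) over the whole span, and its call in the second interval, 1.00 (SE 0.30), held only without E12.5 replicate 3 when single libraries were left out. Lama1, a laminin chain of early basement membranes, fell by 1.67 (SE 0.28, adjusted p = 0.00173) from E10.5 to E12.5.

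The glycosyltransferases named here were not called. Mgat5, which adds the N-glycan branch that galectin-3 favours, had log2 fold changes of 0.45 (SE 0.10) and −0.57 (SE 0.17) in the 2 intervals. St6gal1, which adds the α2,6-linked sialic acid that blocks binding of galectin-1, was at 82.9, 87.7 and 60.7 CPM at the successive stages, and E12.5 vs. E11.5 was −0.54 (SE 0.14). Both thus had lower values at E12.5 than at E11.5 in all libraries, by less than the fold threshold.

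Some of these values depended on single libraries, and the sums of cell type markers differed between libraries and stages. E10.5 replicate 3 stood apart in its markers: the 12 epithelium markers summed to 948 CPM there against 510 and 575 CPM in E10.5 replicates 1 and 2, the 12 facial mesenchyme markers to 1870 CPM against 3184 and 3065 CPM, and the 10 endothelium markers to 138 CPM against 396 and 380 CPM. It was the E10.5 library with the highest S100a10 and S100a11 and with the lowest S100a16, S100a6, Lgals9 and Lgals3. Without it, the log2 fold change in E11.5 vs. E10.5 was 0.66 for S100a10, 0.91 for S100a11 and 0.51 for S100a16, and the number of members called was 2 in place of 1. Across 16363 genes, the deviation of E10.5 replicate 3 from its stage fell with GC content (Spearman's rho −0.55, as a description). Those of E10.5 replicates 1 and 2 rose with it (0.44 and 0.47). The part of this GC trend in the marker sums was not tested. Over the stages, the epithelium sum was 510–948, 556–574 and 832–928 CPM and the mesenchyme sum 1870–3184, 4341–4838 and 5813–6690 CPM. The 10 forebrain markers summed to 435–575, 127–147 and 131–160 CPM, and 9 of them were called as lower in the first interval, beside 2.61% of all genes tested. For 2 of the 10, no E11.5 library exceeded 3 reads. Those 2 entered that test only through their E10.5 counts, so a call was bound to be a fall. The part of these marker lists in the values of the members was not tested.

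At E12.5, replicate 2 was the lowest library for 8 of the 10 members. Across 16375 genes, its deviation from the mean of its stage rose with gene length (Spearman's rho 0.52) and that of replicate 3 fell with it (−0.41), as a description over genes that are not independent. All 10 members, with gene lengths of 511–2137 bases, are shorter than the median gene of 4032 bases. With the length trend of each library removed, E12.5 vs. E11.5 was 1.37 for Lgals1, 1.39 for S100a10 and 0.99 for S100a11, against 1.65, 1.65 and 1.29 as counted, and the S100a11 call was lost. With E10.5 replicate 3 and E12.5 replicate 2 both left out, 8 members were called in E12.5 vs. E10.5 in place of 7, the added member being S100a13 (1.08).

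**Figure D4:**
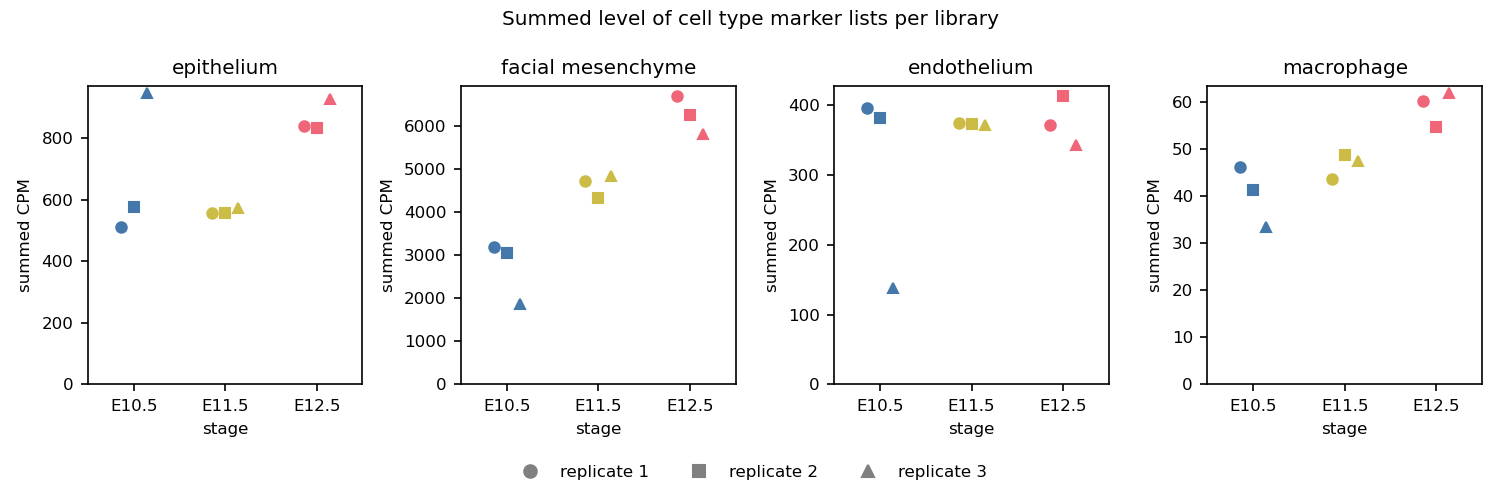
Summed CPM of 4 lists of marker genes (vertical axes, linear) in each library by stage (horizontal axes). E10.5 replicate 3 has the highest epithelium sum of its stage (948 CPM) and the lowest mesenchyme (1870 CPM) and endothelium (138 CPM) sums.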

How the data were processed

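The deposited table gives 54532 genes by Ensembl identifier and symbol. From the authors come raw read counts (whole numbers, not normalized) and FPKM for each gene in each library. The deposited gene length column was used for CPM per kb. Reads were mapped with HISAT2 2.0.5 to mm10, per the submitters' processing notes, and counted with featureCounts. The FPKM values and the columns with fold changes and p-values of the authors' own DESeq2 comparisons were left out. How strand and multi-mapped reads were treated in counting is not given in the sources used here.

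Samples were grouped by the stage in their labels. A separate model for each pair of stages, on 6 libraries, was fitted in edgeR 4.0.16 (R 4.3.3, limma 3.58.1) with filterByExpr, TMM normalization and the quasi-likelihood test, and p-values were adjusted over all genes tested. A call needs an adjusted p-value no higher than 0.05 and a log2 fold change of 1 or more in size. A standard error is the size of the log2 fold change over the root of F. Bounds use 3 counts per library and cover counting error only, since reads carried no molecular identifiers. With 3 libraries against 3, an exact permutation test cannot give a p-value below 0.1. P-values of genes outside the members set a stage difference against the spread between pooled libraries. They take no account of how the genes were chosen. The scripts were tested on simulated data.

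The members, the lists of related genes and the markers were chosen with earlier results of these data known. The genes named are all members, every other galectin or S100 gene called in any comparison, the 3 most changed called genes in each direction of the 2 lists of partners and ligands, and Anxa2, Cacybp, Ahnak, Lgals3bp, Mgat5 and St6gal1 whatever their value. Lgals2, Lgals4, Lgals8, Lgals12, Lgalsl, S100a3, S100a5, S100a7a, S100g, S100a2, the pseudogenes, Krt5, Krt8, Krt14, Krt15, Krt18, Trp63, Epcam, Cdh1, Lor and Gm42674 were named after their values were seen. For each member, the 3 protein-coding genes with the highest Pearson correlation of log2 CPM were also listed.

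Alternatives changed the normalization (size factors of DESeq2 1.42.0, upper quartile), the tool (DESeq2, glmTreat), the filter (any gene with 1 count, or 10 counts in each library), the model (9 libraries together, replicate block, GC trend removed by lowess with span 0.3), the thresholds (0.01 for the adjusted p-value, or no fold threshold) and the libraries (1 left out each time). Removal of the gene length trend and leaving out E10.5 replicate 3 with E12.5 replicate 2 were added after seeing the data. Gene positions, GC content and exon overlaps follow GENCODE on GRCm38, and promoter windows are from RefSeq. Between replicate libraries, chi-square over its degrees of freedom was 4.31–64.6, so none is a repeat deposit. Python 3.11.15, pandas 2.3.3, scipy 1.17.1 and matplotlib 3.10.9 gave the tables and plots.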

Additional observations from a re-analysis of the deposited data

How the results depend on the processing

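No result changed direction past the thresholds under any alternative run. Member fold changes were tallied over the alternative fits, without glmTreat and without the changed thresholds. Of these values, 354 were in place, 13 had moved, 8 had come past the thresholds and 3 had dropped below them. The members called with glmTreat are given below for the first and second interval. All 150 levels of members were in place.

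In the first interval, the members called were 1 as reported, 2 with all genes of at least 1 count, 2 in the fit on all 9 libraries, 2 with the GC trend removed, 0 with glmTreat, and 0–2 with a library left out. Of the other galectin and S100 genes, 0 were called as reported, 1 by DESeq2, 1 with all genes of at least 1 count, 2 in the fit on all 9 libraries, and 0–1 with a library left out, the 1 appearing without E10.5 replicate 1, E10.5 replicate 3 or E11.5 replicate 1. Of the partner and ligand genes together, 4 were called as reported, 1 with glmTreat and 11 with no fold threshold.

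Over the whole span, the members called stayed at 7–8 with a library left out. The other family genes called were 6 as reported, 5–6 with a library left out and 1 when each library had to hold at least 10 counts, a filter that drops genes absent at E10.5. The partner and ligand genes were 8 as reported, 5 with glmTreat and 13 with no fold threshold.

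In the second interval, the members called were 5 as reported, 1 with glmTreat and 5–7 with a library left out. The other family genes were 5 as reported, 1 with that filter, 1 with glmTreat, 2 at the adjusted p-value of 0.01 and 2–5 with a library left out (3, 2 and 3 without the E11.5 replicates numbered 1, 2 and 3). The partner and ligand genes were 5 as reported, 2 with glmTreat and 9 with no fold threshold. Where no filter or threshold shows it, the cause was not tested.

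Deviations of libraries with the same replicate number correlated at −0.15 to 0.22. Libraries with different numbers were not compared in this way, so whether the numbers pair the libraries was not tested. With a replicate block, the members called were 1 in the first interval, 5 in the second and 7 over the whole span, the other family genes 0, 6 and 6, and the partner and ligand genes 4, 4 and 8. Depth limits Lgals3, Lgals7 at E10.5, Lgals9 at E10.5, S100a4 and 5 of the other S100 genes, and 3 pools per stage limit all comparisons.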

Other observations

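The genes with profiles most like those of the members were listed as a description, by Pearson's r of log2 CPM over the 9 libraries among 14126 protein-coding genes. All libraries share the stage differences, so a high r was common, and no test was made. For Lgals1 these were Dap (0.998), Copz2 (0.995) and Tceal6 (0.992). S100a11 was followed most closely by Wnt4 (0.993), Krt14 (0.992) and Pmp22, and S100a10 by Arl6ip5 (0.993), Rab12 and Lmo4. Lgals7 had Prss23 (0.991) as its nearest, Lgals9 had Ppic (0.991), S100a16 had Polr3gl (0.991) and S100a6 had Il17d (0.981). For Lgals3 (Rin3, 0.970) and S100a13 (Prdx5, 0.972), the nearest genes were less close. Among pairs of members, Lgals3 and S100a13 had the lowest r, at 0.15.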
